A study of Mus musculus with 62 samples.

Results

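The 10 genes described here mark astrocytes or carry out their transport work, and were followed across 5 brain regions of mice given ethanol once or daily. They were taken by name: *Gfap*, *S100b*, *Aldh1l1*, *Sox9*, *Slc1a2*, *Slc1a3*, *Glul*, *Aqp4*, *Kcnj10* and *Gja1* each matched 1 row of the 56415 genes counted, and all 10 passed the filter on low counts in every comparison.

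All animals were C57BL/6J male mice of 8 to 10 weeks, injected intraperitoneally with saline or with 2 g/kg ethanol (20% in saline). Acute groups received 1 injection and chronic groups 10 daily injections, and tissue was taken 4 h after the last. Messenger RNA was sequenced from cored pieces of frozen cortex (CTX), dorsal and ventral hippocampus (dHPC, vHPC), and dorsal and ventral striatum (DS, VS), giving 62 libraries from 16 mice in 20 groups of 3 or 4. No sorting of cells took place, so each value is an average over astrocytes, neurons and every other cell in the core, and fewer astrocytes cannot be told apart from less RNA per astrocyte.

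Astrocytes clear glutamate and potassium from around synapses, move water along blood vessels, and are joined to each other by gap junctions. Glutamate enters them through the carriers encoded by *Slc1a2* (GLT-1) and *Slc1a3* (GLAST), and glutamine synthetase, the product of *Glul*, turns it into glutamine that neurons take back. *Kcnj10* encodes the inward rectifier Kir4.1, *Aqp4* the water channel of the endfeet, and *Gja1* the gap junction protein connexin 43. *Gfap* encodes the intermediate filament that rises in reactive astrocytes, *S100b* a calcium-binding protein also made by some oligodendrocytes, *Aldh1l1* a folate enzyme used as a general astrocyte marker, and *Sox9* a transcription factor of astrocyte identity.

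Total counts per library ran from 43173748 to 71164766 in CTX and dHPC and from 9689502 to 46564992 in the complete vHPC, DS and VS libraries, and the least counted member, *Sox9*, still had at least 170 counts in every library used. DS chronic saline replicate 2 held no counts on several chromosomes, including the part of chromosome 6 that carries *Aldh1l1*, and was left out, which leaves 2 libraries in that group. CTX and dHPC were prepared and sequenced by another method than vHPC, DS and VS, so regions were tested against each other only within each of these sets. Markers of other cells varied between cores: summed markers of cortical-type excitatory neurons, given below as a percentage of their mean in saline CTX, differed between saline and ethanol cores of the striatum, and dHPC chronic saline replicate 5 was at 852% for striatal neuron markers.

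The sequences just before the start of *Gfap* and of *Glul* are shown because these genes lie at opposite ends of the range described here: *Gfap* varied most between regions and was the only member called with ethanol by edgeR, while *Glul* was among the steadiest. Each is the 250 bases before the RefSeq start, placed by exact match in GRCm39. The *Gfap* stretch is chr11:102788027-102788276 on the minus strand, within the span of the counted gene (chr11:102778162-102791738), since the counted gene extends 3712 bases farther upstream. The *Glul* stretch is chr1:153775425-153775674 on the plus strand, 15 bases from the counted gene (chr1:153775690-153783928). Capitals mark a GC box (GGGCGG, either strand).
*Gfap*: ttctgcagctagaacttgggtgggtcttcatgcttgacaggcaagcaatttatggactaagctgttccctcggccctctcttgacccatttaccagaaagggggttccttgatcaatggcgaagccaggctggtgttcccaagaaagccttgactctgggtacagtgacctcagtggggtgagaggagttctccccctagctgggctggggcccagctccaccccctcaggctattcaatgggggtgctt
*Glul*: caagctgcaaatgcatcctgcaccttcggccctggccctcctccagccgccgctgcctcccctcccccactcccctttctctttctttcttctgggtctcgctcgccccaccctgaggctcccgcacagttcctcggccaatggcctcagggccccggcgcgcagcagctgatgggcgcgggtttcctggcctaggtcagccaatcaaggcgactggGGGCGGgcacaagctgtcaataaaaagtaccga

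The *Gfap* stretch has 2 CpG and 55.6% G or C, and the *Glul* stretch has 15 CpG and 64.8%. A GC box occurs in 32.7% of the 32851 RefSeq promoters searched over the same length. Neither stretch holds an AP-1 motif (TGANTCA, in 6.75% of all) or a STAT motif (TTCNNNGAA, in 7.02%). RefSeq entries were found for 8 of the 10 members, not for *Aqp4* and *Sox9*.

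The enzyme *Glul* and the carrier *Slc1a2* were the most abundant of the 10. Per kilobase of exon, *Glul* stood highest of the 10 in every region, at 346 CPM per kb (CPM, read counts scaled to library size) in CTX and 296 in VS, and took between 41.1% and 54.9% of the summed level of the 10 genes in any library. *Slc1a2* followed with 150 CPM per kb in CTX and 182 in vHPC. *Sox9* was lowest, between 4.16 CPM per kb in VS and 7.51 in vHPC.

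*Gfap* was the member whose level depended most on region. Its mean, here in CPM scaled over all libraries, was 384 ± 47.9 (SD, n = 13) in dHPC and 360 ± 56.9 (n = 12) in vHPC, against 77.8 ± 40.1 in DS, 67.9 ± 21.004 in CTX and 54.6 ± 22.8 in VS (n = 12 each). The lowest hippocampal library, at 268.7 CPM, stood above the highest of the other regions, at 166.3. The dHPC mean was 5.66-fold that of CTX, prepared in the same way, and 7.04-fold that of VS, prepared by the other method; the 3 non-hippocampal regions overlapped.

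The other members varied by 2.06-fold or less between their highest and lowest region means, which for *Aldh1l1*, *Kcnj10*, *Gja1* and *Slc1a3* come from libraries made by different methods and are set side by side only. *Aqp4* ran from 111 ± 27.7 CPM in vHPC to 53.7 ± 8.12 in VS, and *Slc1a2* from 2389 ± 263 in vHPC to 1279 ± 189 in VS. *Sox9* varied 1.80-fold, *Gja1* 1.46-fold and *Kcnj10* 1.28-fold. *Glul* and *S100b* each varied 1.21-fold and *Slc1a3* 1.14-fold, with the ranges of neighbouring regions overlapping throughout. *Aldh1l1* and *Kcnj10* were highest in CTX; *Aldh1l1* stood there at 69.4 ± 9.52 CPM and was lowest in DS, at 43.4 ± 5.00. Across libraries of a region the SD was 5.12% to 8.68% of the mean for *Glul* and 12.5% to 51.6% for *Gfap*.

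**Figure D1:**
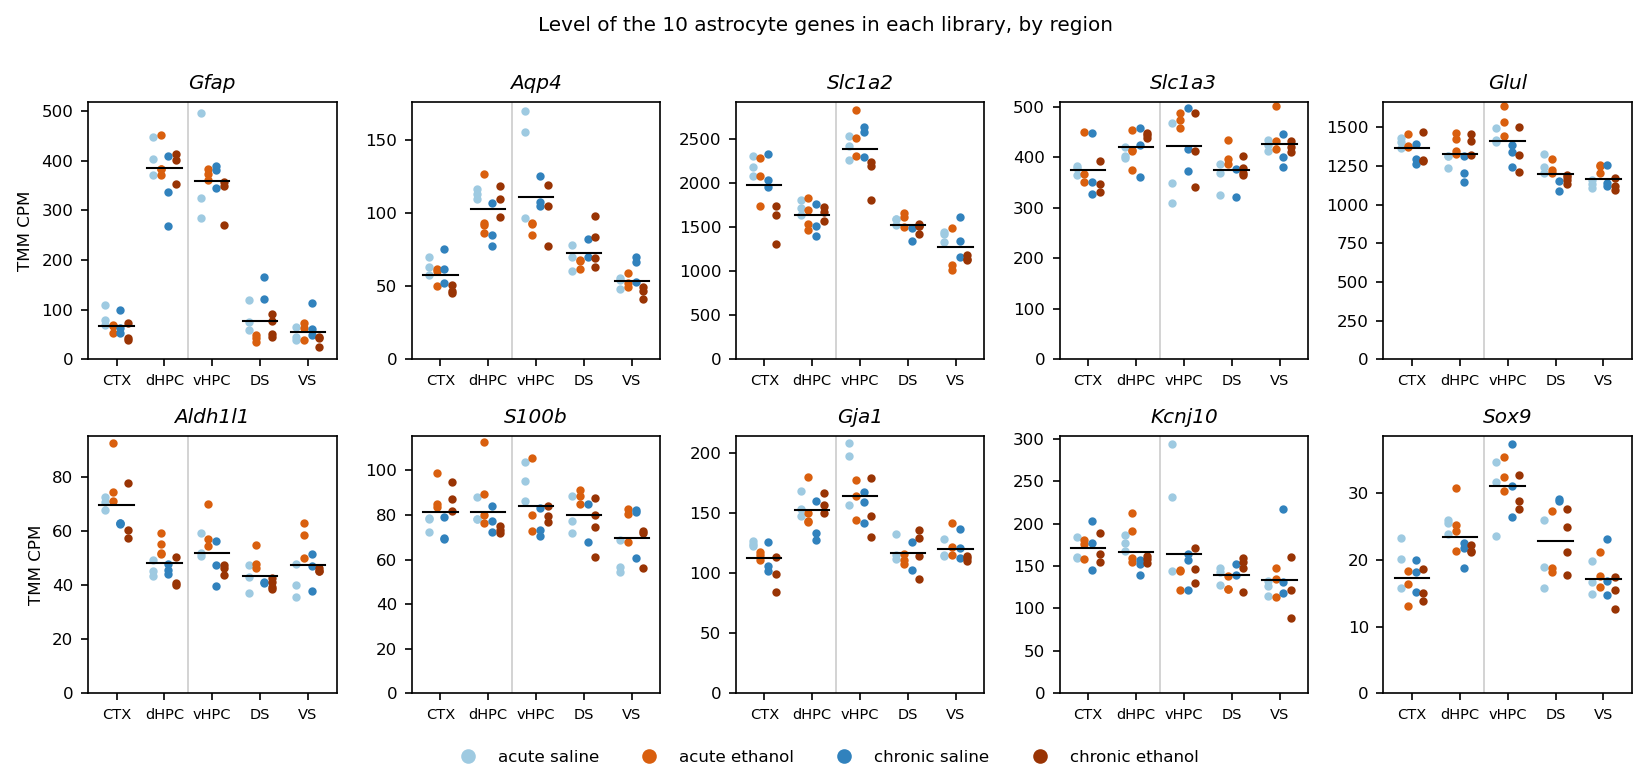
Level of each of the 10 genes in every library (TMM-scaled CPM, linear axes from 0), by region, with colour for treatment and a black bar for the region mean; the grey line separates the libraries made by different methods. The *Gfap* points of dHPC and vHPC lie between 268.7 and 495.2 CPM, above those of CTX, DS and VS, while the *Glul* and *Slc1a3* panels are nearly level.

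Within a mouse, dHPC and CTX differed in 7 of the 10 members by edgeR's quasi-likelihood test with the mouse as a block (FDR below 0.1), where 57.8% of all genes were called. Not every mouse gave every region, and a library with no partner from its mouse adds nothing to such a difference. *Gfap* was higher in dHPC by 2.58 on the log2 scale (SE 0.12, FDR = 9.87e-10 by edgeR). *Aqp4* was higher by 0.90 (SE 0.07), *Sox9* by 0.49 (SE 0.08), *Gja1* by 0.48 (SE 0.05) and *Slc1a3* by 0.20 (SE 0.05). The general marker *Aldh1l1* went the other way, with a log2 difference of -0.53 (SE 0.04), as did *Slc1a2* with -0.26 (SE 0.05). *Glul*, *S100b* and *Kcnj10* were not called, with differences of -0.01, 0.02 and -0.04 and SEs of 0.04 to 0.06. *Sox9* has an overlapping gene on the other strand, BC006965, whose counts were a median 38.4% of those of *Sox9* in CTX and dHPC libraries, whose kit keeps no strand, and 7.10% in the others.

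vHPC stood above DS in 9 members, all but *S100b*, where 57.2% of genes were called in either direction. The difference was 2.33 for *Gfap* (SE 0.21), 0.62 for *Aqp4* (SE 0.10), 0.62 for *Slc1a2* (SE 0.07) and 0.14 to 0.51 for the other 6. vHPC stood above VS in 8 members, where 49.8% of genes were called, again led by *Gfap* with 2.82 (SE 0.23). *Slc1a3* and *Aldh1l1* were not called there, at -0.05 (SE 0.06) and 0.11 (SE 0.06).

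The striatal divisions differed less. DS exceeded VS for *Aqp4* by 0.49 (SE 0.11), *Sox9* by 0.37 (SE 0.10) and *Slc1a2* by 0.28 (SE 0.07), and was below it for *Slc1a3* (-0.19, SE 0.06) and *Aldh1l1* (-0.14, SE 0.06), so that 5 members were called beside 31.4% of all genes. *Gfap* missed the threshold at 0.50 (SE 0.22, FDR = 0.101 by edgeR). With saline mice alone 0 of the 10 were called in this pair, and *Aldh1l1* came to 0.01. That fit used fewer libraries, and the alternative fits of this pair called from 3.43% to 47% of all genes.

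**Figure D2:**
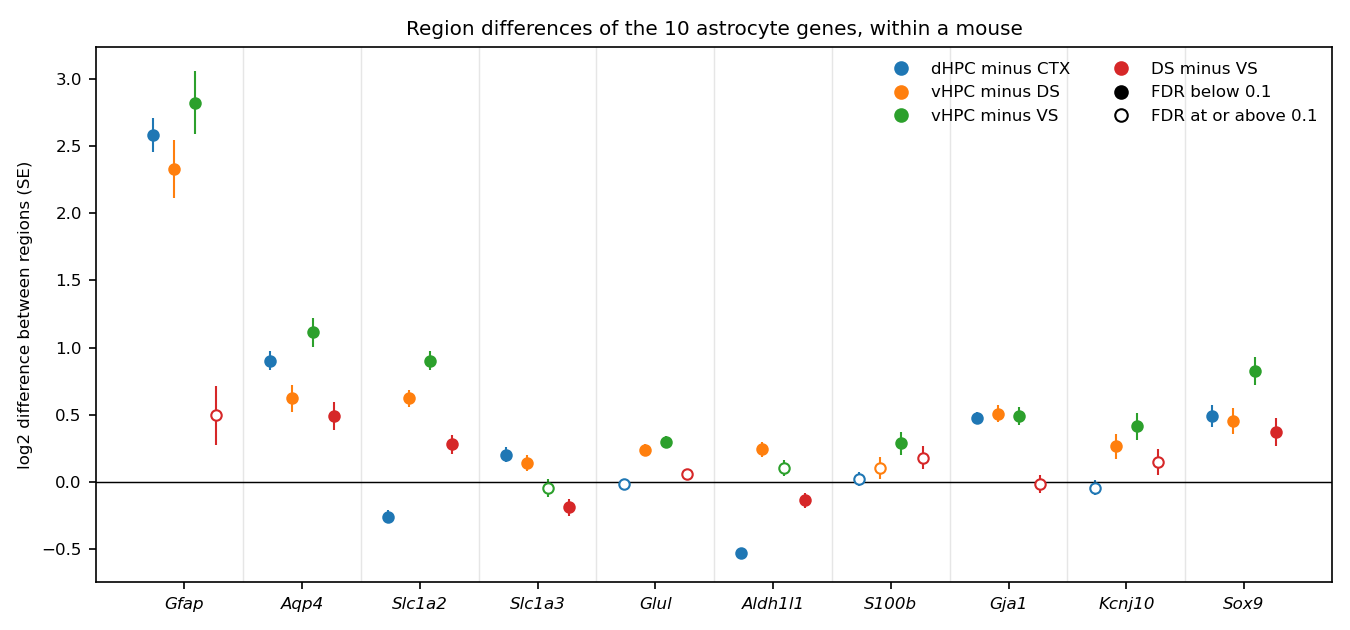
Log2 difference between regions of the same mice for each gene, with 1 SE either side; filled points passed FDR below 0.1 by edgeR. *Gfap* lies between 2.33 and 2.82 in the 3 comparisons of hippocampus with another region, and the other 9 genes lie between -0.53 and 1.11.

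With ethanol, 1 of 100 tests of a member (10 genes, 5 regions, acute and chronic) passed FDR below 0.1 by edgeR: *Gfap* fell in DS after acute ethanol. In 95 of the 100 the fitted log2 change lay within 0.5 of zero. By direction the 100 estimates split evenly, 50 up and 50 down, and 20 had an unadjusted p below 0.05 by edgeR. The share of all genes below that p after acute ethanol was 12.5% (CTX), 7.88% (dHPC), 11.9% (vHPC), 15.5% (DS) and 7.32% (VS), and after chronic ethanol 10.4%, 8.23%, 9.51%, 7.53% and 9.95% in the same order. DESeq2 called 6 of the 100 at FDR below 0.1, each given below; in that order it called 3.69%, 1.07%, 2.9%, 6.4% and 0.889% of all genes after acute ethanol and 0.608%, 0.859%, 1.08%, 0.776% and 1.79% after chronic ethanol. p-values measure the spread between the 2 to 4 mice of a group.

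In DS, *Gfap* stood at 120.1, 59.1 and 75.9 CPM in the acute saline libraries and at 35.2, 49.2 and 43.4 after acute ethanol. The groups did not overlap, as held for 21.2% of genes in that comparison. The log2 change was -1.01 (SE 0.20, FDR = 0.0146 by edgeR's quasi-likelihood test with Benjamini-Hochberg adjustment), where 5.15% of 20495 genes were called and 3.10% were called lower. Leaving out each library in turn kept the call and gave changes of -1.22 to -0.68, the smallest without acute saline replicate 2. DESeq2, the tool the study used, gave FDR = 0.0523, and a fit sharing 1 spread with the chronic groups gave FDR = 0.127. Over the alternatives FDR ran from 0.00405 to 0.127, apart from 1.40e-26 by edgeR with no filter on low counts, an extreme value that is not relied on. The other 9 members in DS ranged from -0.14 for *Kcnj10* to 0.20 for *Aldh1l1*.

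Cells of other kinds moved with this result. Cortical-type excitatory neuron markers, 9 genes, summed to 22.3%, 23.7% and 27.6% of saline CTX in the acute saline DS cores and to 6.35%, 8.40% and 5.57% in the acute ethanol cores, none of the 9 was at 0 in either group, and all 9 passed as lower. Myelin markers overlapped, at 395% to 467% against 365% to 419%, as did the 28 other astrocyte markers, at 79.5% to 82.6% against 79.2% to 82.8%. Striatal projection neuron markers went the other way, at 1875% to 2282% in saline and 2505% to 2603% after ethanol, without overlap, and 8 of 10 passed as higher. The part of these neuronal differences in the *Gfap* change was not tested.

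After chronic ethanol, *Gfap* in DS read 90.9, 45.3, 76.3 and 50.1 CPM against 121.6 and 166.3 in saline. The groups did not overlap, as for 17.2% of genes. The log2 change was -1.14 (SE 0.27), with FDR = 0.396 by edgeR, where 0% of genes were called (1495 at an unadjusted p below 0.05 and 154 by DESeq2), and FDR = 0.00374 by DESeq2, where 0.776% were called; with the incomplete library kept the change was -0.76 and FDR = 0.969 by edgeR. The saline cores here held 31.01% and 20.2% of the saline CTX level of cortical-type neuron markers and the ethanol cores 4.52% to 10.4%. Choroid plexus and meningeal fibroblast markers were also uneven, with fibroblast markers at 123% and 352% in saline and 160%, 35.3%, 182% and 32.6% in ethanol cores, and the 2 ethanol libraries with the higher values were those with more *Gfap*. Their part was not tested.

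In VS, acute ethanol left *Gfap* at 39.2, 62.5 and 72.9 CPM against 38.4, 44.7 and 64.3 in saline, a log2 change of 0.24 (SE 0.24). Chronic ethanol gave 41.9, 45.2 and 23.7 against 47.8, 61.5 and 112.5, with no overlap, as for 16.1% of genes, and a change of -1.01 (SE 0.32, FDR = 0.368 by edgeR). Without chronic saline replicate 6, whose choroid plexus and fibroblast markers were also the highest of the group, it was -0.57. Cortical-type neuron markers in VS stood at 16.7% to 37.8% in acute saline and 4.42% to 9.09% after acute ethanol, and at 33.5%, 5.87% and 20.7% in chronic saline and 4.09%, 6.99% and 4.75% after chronic ethanol. Their part in the *Gfap* values was not tested.

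**Figure D3:**
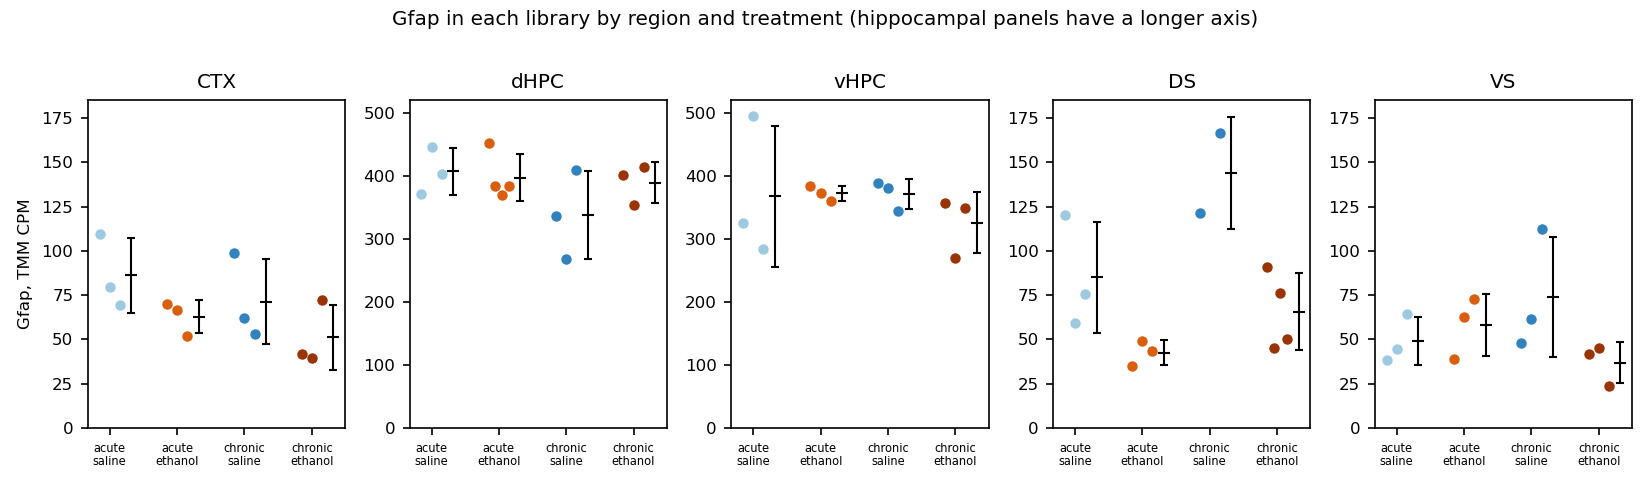
*Gfap* in each library (TMM-scaled CPM) by region and treatment, with the group mean and SD beside the points; the dHPC and vHPC panels have a longer axis. The acute ethanol points of DS, 35.2 to 49.2 CPM, lie below the acute saline points, 59.1 to 120.1.

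Elsewhere *Gfap* read 109.8, 79.5 and 69.2 CPM in CTX of acute saline mice and 69.8, 66.6 and 52.1 after acute ethanol, groups that overlapped by 1 library each. The log2 change of -0.46 (SE 0.14) had FDR = 0.163 by edgeR, where 1.99% of genes and 0 of 10 members were called, and it was -0.25 without acute saline replicate 2. Meningeal and vascular fibroblast markers fell alongside, from 102% to 118% in saline to 66.8% to 76.6% after ethanol; their part was not tested. In dHPC and vHPC, where *Gfap* was most abundant, its 4 changes lay between -0.19 and 0.19, and in CTX after chronic ethanol it was -0.48 (SE 0.26, FDR = 0.538 by edgeR).

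**Figure D4:**
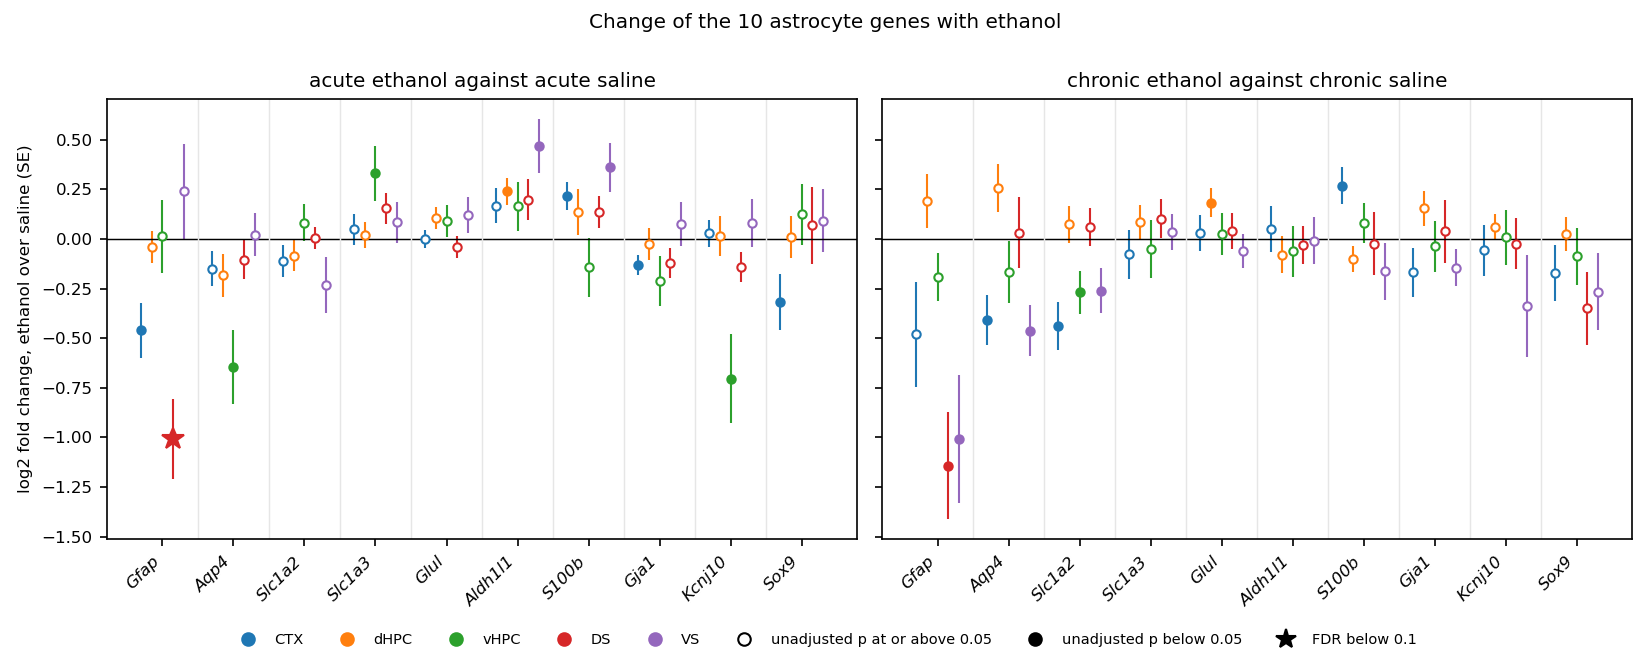
Log2 fold change, ethanol over saline, of the 10 genes in 5 regions (colours) after acute and chronic exposure, with 1 SE either side; open points have unadjusted p at or above 0.05, filled points below it, and the star marks FDR below 0.1 by edgeR. The star is *Gfap* in DS at -1.01, and most other points lie within 0.5 of zero.

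None of the glutamate carriers or glutamine synthetase was called by edgeR. In CTX, *Slc1a2* read 2330, 1962 and 2038 CPM in chronic saline and 1736, 1305 and 1638 after chronic ethanol. The groups did not overlap, as for 18.3% of genes, and the log2 change was -0.44 (SE 0.12, FDR = 0.443 by edgeR, where 0% of genes were called, 2656 had an unadjusted p below 0.05 and 156 were called by DESeq2, at FDR = 0.0998 for *Slc1a2*). In vHPC it read 2640, 2584 and 2298 CPM in chronic saline and 2195, 1814 and 2239 after chronic ethanol, also without overlap (14.8% of genes), at -0.27 (SE 0.11, FDR = 0.491 by edgeR). Cortical-type neuron markers in these cores were at 92.1% to 106% in saline and 66.2% to 87.2% after ethanol, and choroid plexus markers at 75.8% to 595% and 2568% to 9204%; their part was not tested. In VS the chronic change was -0.26 (SE 0.11, FDR = 0.499 by edgeR), and in dHPC and DS it was 0.07 and 0.06. The acute changes of *Slc1a2* ran from -0.23 in VS to 0.08 in vHPC.

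*Slc1a3* in vHPC read 309.3, 349.4 and 468.7 CPM in acute saline and 487.2, 457.3 and 474.3 after acute ethanol, a log2 change of 0.33 (SE 0.14, FDR = 0.398 by edgeR). The lower saline libraries, replicates 2 and 4, are those with the most myelin and thalamic neuron markers of the group, given below. Acute ethanol replicate 4, at 389% for myelin and 293% for the thalamic list, had 457.3 CPM. The part of these markers was not tested. The other 9 changes of *Slc1a3* lay between -0.08 and 0.15. *Glul* in dHPC read 1203, 1145 and 1312 CPM in chronic saline and 1410, 1322 and 1460 after chronic ethanol, groups that did not overlap (14.2% of genes), with a change of 0.18 (SE 0.07) that did not pass, FDR = 0.583 by edgeR. The lowest of these saline values is replicate 5, the core at 852% for striatal neuron markers, and the part of those markers was not tested. All 10 *Glul* changes lay between -0.06 and 0.18, and their 95% intervals together spanned -0.23 to 0.33.

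Among the water, potassium and gap junction genes, the largest changes were in vHPC after acute ethanol. *Aqp4* read 169.5, 155.1 and 96.7 CPM in saline and 93.3, 84.5 and 92.2 after ethanol, and *Kcnj10* read 293.1, 230.7 and 144.6 against 145.6, 144.1 and 121.4. In both genes replicates 2 and 4 of the saline group stood high and replicate 6 close to the ethanol libraries; the groups did not overlap for *Aqp4* (17.7% of genes) and overlapped for *Kcnj10*. The log2 changes were -0.64 for *Aqp4* (SE 0.19, FDR = 0.261) and -0.70 for *Kcnj10* (SE 0.22, FDR = 0.305) by edgeR, where 0% of genes were called (2374 at an unadjusted p below 0.05), and DESeq2 gave FDR = 0.0306 and 0.0396, where it called 2.90%. Without acute saline replicate 6, the saline library close to the ethanol ones, both passed in edgeR, with -0.86 and -0.95. Leaving out any other single library called neither. Over the 6 fits without 1 library, 0 to 301 of all genes were called.

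Thalamic neuron markers followed the same libraries: 1183%, 292% and 187% of saline CTX in the 3 acute saline vHPC cores, and 77.8%, 293% and 64.2% in the ethanol cores, with none of the 6 markers at 0. Myelin markers did so too, at 431%, 354% and 119% in saline and 187%, 389% and 151% after ethanol. Acute ethanol replicate 4, at 293% for the thalamic list and 389% for myelin, had 144.1 CPM of *Kcnj10*. Their part in the differences of *Aqp4* and *Kcnj10* was not tested.

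After chronic ethanol, *Aqp4* was lower in CTX, at 45.5, 46.7 and 50.5 CPM against 75.0, 52.0 and 61.8 (-0.41, SE 0.13, FDR = 0.443 by edgeR). In VS it was at 49.6, 46.8 and 41.1 against 52.4, 66.6 and 69.6 (-0.46, SE 0.13), with FDR = 0.326 by edgeR and 0.0867 by DESeq2. Neither pair of groups overlapped, as for 18.3% and 16.1% of genes. In vHPC the chronic change of *Kcnj10* was 0.01 and that of *Aqp4* -0.17, and *Gja1* ranged over all 10 comparisons from -0.21 to 0.15, with -0.13 (SE 0.05, FDR = 0.288 by edgeR) in CTX after acute ethanol, where the libraries read 126.9, 124.3 and 122.4 CPM in saline and 114.7, 117.1 and 110.4 after ethanol, without overlap, as for 17.6% of genes.

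**Figure D5:**
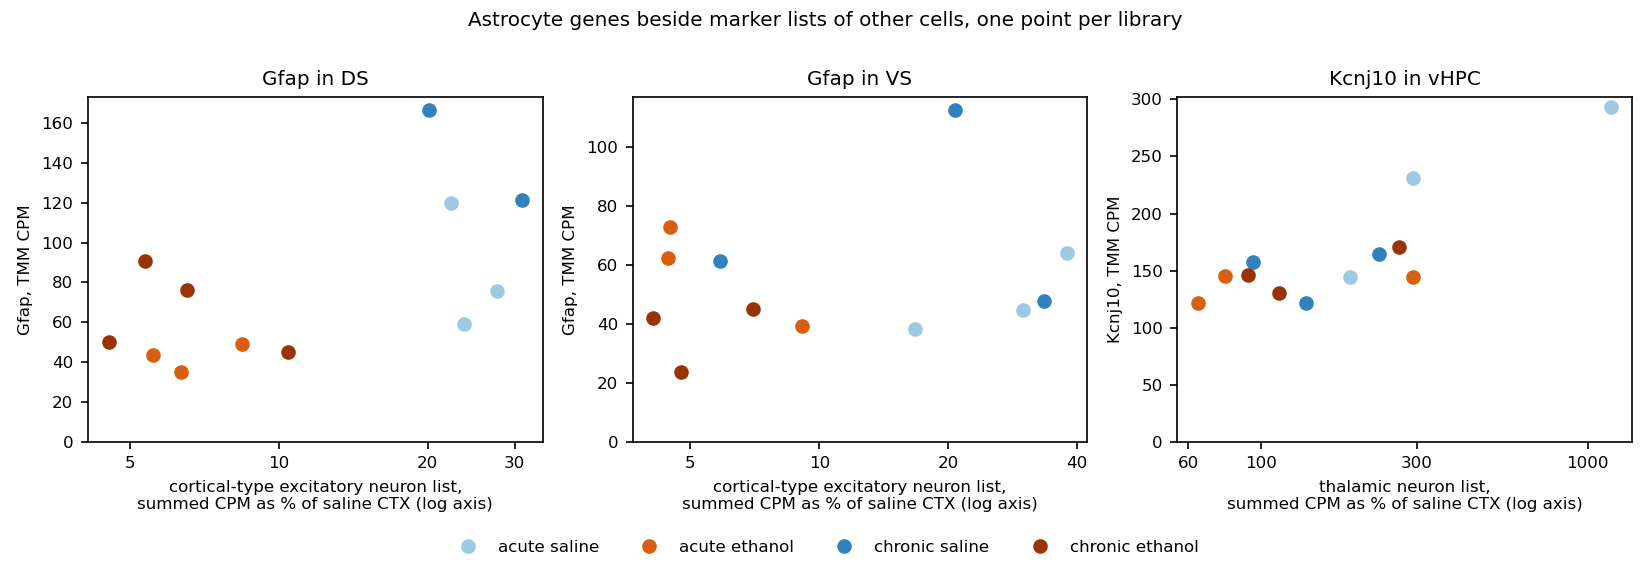
*Gfap* in DS and VS against the summed cortical-type excitatory neuron markers, and *Kcnj10* in vHPC against the summed thalamic neuron markers, 1 point per library; horizontal axes are logarithmic, in percent of saline CTX. In DS and VS the acute ethanol libraries lie at 9.09% or less of the neuron markers, and in vHPC the library at 1183% has the most *Kcnj10*, 293.1 CPM.

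*S100b* and *Aldh1l1* each had 6 estimates above 0 and 4 below among their 10 ethanol comparisons, and none was called. *S100b* in CTX read 78.4, 72.3 and 78.4 CPM in acute saline and 85.0, 98.6 and 83.6 after acute ethanol (0.22, SE 0.07, FDR = 0.203 by edgeR), and 69.4, 69.8 and 79.0 in chronic saline and 81.7, 94.8 and 87.2 after chronic ethanol (0.27, SE 0.09, FDR = 0.443 by edgeR). The groups did not overlap in either paradigm, as for 17.6% and 18.3% of genes. Myelin markers in CTX stood at 95.7% to 108% in acute saline and 113% to 150% after acute ethanol, and at 58.9% to 127% and 99.9% to 154% in the chronic groups; whether they account for the *S100b* values was not tested. *S100b* in VS changed by 0.36 (SE 0.12, FDR = 0.534 by edgeR) after acute ethanol.

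*Aldh1l1* read 43.4, 49.4 and 45.2 CPM in dHPC of acute saline mice and 51.6, 51.9, 59.3 and 55.1 after acute ethanol, a log2 change of 0.24 (SE 0.07, FDR = 0.390 by edgeR, where 0.042% of genes were called). In VS it read 35.7, 48.0 and 40.2 against 49.96, 58.4 and 62.9, a change of 0.47 (SE 0.14, FDR = 0.449 by edgeR, where 0.0399% were called). Neither pair of groups overlapped, as for 8.12% and 12.3% of genes. In VS the other astrocyte markers, summed, stood at 76.1% to 89.6% of saline CTX in acute saline and 85.3% to 101% after acute ethanol. Their part was not tested. All 5 acute changes of *Aldh1l1* were above 0, from 0.16 to 0.47, and its chronic changes lay between -0.08 and 0.05. The regions came from overlapping sets of mice, so the shared direction is not 5 separate findings. *Sox9* gave 15.8, 23.3 and 20.2 CPM in CTX of acute saline mice and 16.4, 18.4 and 13.04 after acute ethanol, which overlapped, at -0.32 (SE 0.14, FDR = 0.380 by edgeR); its other 9 changes lay between -0.35 and 0.13.

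In dHPC, DS and VS after chronic ethanol 0% of genes were called by edgeR, and in vHPC 0.0555%, so that 0 called members there sits beside hardly any called genes.

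Whether the response depended on the number of injections was tested directly, as the chronic change minus the acute change in each region. None of the 10 members passed in any region, and 0% of genes did in all 5 regions by edgeR; at an unadjusted p below 0.05 the share was 4.16% to 11.5% of all genes, and DESeq2 called 0.00745% to 2.02%, with no member among them. In VS the chronic change of all 10 genes lay below the acute change, from -0.03 to -1.24. All 10 values come from the same libraries, so their shared direction is not 10 separate findings. Of them *Gfap* gave -1.24 (SE 0.46, FDR = 0.997 by edgeR), *S100b* -0.52, *Aqp4* -0.48 and *Aldh1l1* -0.47. In vHPC *Kcnj10* gave 0.71 (SE 0.29, FDR = 0.381) and *Slc1a2* -0.35 (SE 0.15, FDR = 0.394) by edgeR. *Slc1a2* gave -0.34 in CTX (SE 0.16, FDR = 0.606), and in dHPC *Aqp4* gave 0.44 (SE 0.18) and *Aldh1l1* -0.33 (SE 0.12), both at FDR = 0.969 by edgeR. The dHPC values use chronic saline replicate 5, the core high in striatal neuron markers, and the part of those markers was not tested. These differences use the same saline groups as the changes above and add no separate samples.

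Between saline mice injected daily and once, 0 of the 10 members passed in any region by edgeR, and between 1 and 3 in each had an unadjusted p below 0.05, as did 7.13% (CTX), 7.7% (dHPC), 11% (vHPC), 15.1% (DS) and 5.89% (VS) of all genes. The percentage of genes called was 0.00772% in CTX, 0.00382% in dHPC, 0% in vHPC and VS and 3.17% in DS. In DS *Gfap* was higher in chronic saline, at 121.6 and 166.3 CPM against 120.1, 59.1 and 75.9, by 0.79 on the log2 scale (SE 0.25, FDR = 0.172 by edgeR). Fibroblast markers in those cores were at 123% and 352% in chronic saline and 42.3% to 55.6% in acute saline, and choroid plexus markers at 5566% and 20530% and at 70.5% to 877%; their part in the values of *Gfap* and of *Sox9* in DS was not tested. *Kcnj10* was lower in chronic saline in both hippocampal regions, by estimates of -0.23 (SE 0.06, FDR = 0.559) in dHPC and -0.60 (SE 0.23, FDR = 0.394) in vHPC by edgeR, the latter against the same high acute saline libraries as above. *Aqp4* (-0.32, SE 0.10) and *Sox9* (-0.25, SE 0.08) were also lower in dHPC, *S100b* was lower in vHPC (-0.34, SE 0.11) and higher in VS (0.32, SE 0.14), *Sox9* was higher in DS (0.55, SE 0.20) and *Aldh1l1* lower in CTX (-0.16, SE 0.06), by estimates that did not pass. The dHPC differences again include chronic saline replicate 5, high in striatal neuron markers, whose part was not tested.

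By transcript isoform, 61 annotated isoforms of the 10 genes were tested in each ethanol comparison. The 3 that passed FDR below 0.1 by edgeR were the 3 isoforms of *Gfap* in DS after acute ethanol, with log2 changes of -1.01 for Gfap-201 (SE 0.18, FDR = 0.00373), -0.94 for Gfap-203 (SE 0.23, FDR = 0.0346) and -1.07 for Gfap-202 (SE 0.20, FDR = 0.00447), where 3.59% of all 108989 isoforms were called. Reads were counted toward every isoform they overlapped, so these 3 values share most of their reads. The spread of the 3 estimates was smaller than the SE of any of them.

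Of 28 further astrocyte markers few passed outside DS. In CTX after acute ethanol *Apoe*, a lipid carrier, fell (-0.21, SE 0.05), where 0.818% of genes were called higher and 1.17% lower. In DS after acute ethanol 6 passed, where 2.05% of genes were called higher and 3.1% lower: *Nfib* (-0.69, SE 0.13) and *Nfia* (-0.50), transcription factors of glial development, *Slc25a18* (-1.05), a mitochondrial glutamate carrier, *Sparcl1* (-0.24) and *Mfge8* (-0.27), secreted proteins, fell, and *Slc4a4* (0.27), a bicarbonate cotransporter, rose. The median of the 28 was -0.01, and that of all genes 0.004. These are the DS cores whose neuron markers differed between saline and ethanol, as given above, and the part of those markers in the 6 changes was not tested. *Nfib* remained called without any single library, whereas *Nfia*, *Sparcl1*, *Mfge8* and *Slc4a4* lost the call without several of them and *Slc25a18* without acute saline replicate 2, and all 6 lost it when the chronic groups shared the fit.

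Of 12 other genes of glutamate and glutamine handling, 2 fell in DS after acute ethanol: *Slc38a2* (-0.52, SE 0.08), a glutamine carrier, and *Slc17a7* (-3.20, SE 0.50), the vesicular glutamate carrier of cortical-type neurons, which belongs with the neuron markers above. In CTX 1 fell, the glutamine carrier *Slc38a5* (-1.22, SE 0.21). Among 17 potassium, water and gap junction partners, the connexin gene *Gjb6* rose in dHPC (0.50, SE 0.07, FDR = 0.0956 by edgeR; alternatives 2.44e-07 to 0.295), where 0.0267% of genes were called higher and 0.0153% lower, and *Gjb2* fell in CTX (-0.54, SE 0.11), both after acute ethanol. None of these lists had a called gene after chronic ethanol in any region. Hardly any gene could be among them, since edgeR called 0% of all genes in CTX, dHPC, DS and VS and 0.0555% in vHPC.

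Genes linked to reactive astrocytes passed in both directions. Of the 32 listed, 30 were measured well enough in CTX and 24 in DS, and 4 and 2 of them passed beside the shares of all genes given above (1.99% and 5.15%). After acute ethanol *Fkbp5*, a glucocorticoid-induced chaperone, passed by edgeR as higher in CTX (0.93, SE 0.13) and DS (0.80, SE 0.09). The study, by DESeq2, reports *Fkbp5* as higher in every region after acute ethanol, and in CTX, dHPC and VS after chronic ethanol. In CTX after acute ethanol *Serpina3n* (0.40, SE 0.09) and *Aspg* (0.67, SE 0.16) rose while *Serping1* (-0.56, SE 0.13) fell. In DS *S100a10* fell (-0.65, SE 0.19). *Fkbp5* kept the call in all 6 fits without 1 library in CTX and in DS; the other 4 kept it in 1 or 2 of 6. The median change of the list was -0.16 in CTX and -0.08 in DS. Its summed level, which includes *Fkbp5*, stood higher after acute ethanol in CTX, at 107% to 111% in saline and 113% to 123% after ethanol. In DS the sum stood at 101% to 104% in saline and 117% to 123% after ethanol. Neither pair of groups overlapped, as held for 17.6% and 21.2% of single genes.

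Within groups, the members varied together only in part. After subtracting each group's mean from log2 CPM, the 45 pairs of members had a median Pearson r of 0.24 over 61 libraries, from -0.34 to 0.67, the highest between *Gfap* and *Aqp4*, and 39 were above 0. *Slc1a2* had the weakest mean r with the other 9, at 0.07. By the same measure genes among the most like the 10 were *Mlc1* (mean r 0.41) and *Gpr37l1* (0.41), both astrocyte membrane proteins, *Col1a2* (0.39), a fibroblast collagen, and *Irs1* (0.39), an insulin receptor substrate. The median over 13156 genes was -0.02 and the 95th percentile 0.18. *S100b* and *Kcnj10* also varied with the summed myelin markers, at r of 0.58 and 0.57, where *Slc1a3* gave -0.56 and *Slc1a2* -0.37. With the other astrocyte markers, summed, r ran from -0.07 for *Slc1a2* to 0.73 for *Glul*, with 0.56 for *Gfap*. The strongest r with cortical-type excitatory neuron markers was 0.48, for *Slc1a2*. With meningeal and vascular fibroblast markers the strongest were *Sox9* (0.58) and *Gfap* (0.56), and with thalamic neuron markers *Aqp4* (0.52) and *Kcnj10* (0.50). The libraries of a mouse share the animal, so these values describe these libraries.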

How the data were processed

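Poly(A) RNA was sequenced by the authors, trimmed with Cutadapt 5.0, aligned to GRCm39 with STAR 2.7.10a and counted with featureCounts 2.0.6 against Ensembl gene models; the deposited tables hold raw counts per gene and per isoform. Reads mapping to several places or features were counted for each, and all libraries were counted as reverse-stranded although the CTX and dHPC kit keeps no strand. Genes with at least 5 counts in 2 libraries of a group were tested in edgeR 4.0.16 (TMM scaling, quasi-likelihood F test, Benjamini-Hochberg over all genes, FDR below 0.1), separately per region and paradigm; chronic minus acute changes used all 4 groups of a region, and regions were compared with the mouse as a block. SEs are the log2 change over the square root of F. CPM levels share one TMM scaling over 61 libraries. Members were given in full when FDR was below 0.1 or unadjusted p below 0.05, and genes of other lists when FDR was below 0.1 (at most 6 a list and comparison); the 5 genes most like the members were taken by mean within-group r (log2 of CPM plus 0.5, mean of at least 5 CPM). Some genes these rules name are not reported here. Fits were tested on simulated data. DESeq2, other scalings and filters, shared fits, left-out libraries and the replicate block were alternatives. Members and gene lists were chosen with earlier results of these data known. Replicates are separate mice; no 2 libraries of a group agreed within counting noise. Libraries used held 9689502 to 71164766 counts, against 8149628 in the one left out, and *Sox9* was the least counted member. In the ethanol comparisons the largest SE was 0.32 for *Gfap*, 0.26 for *Kcnj10* and 0.19 for *Sox9*.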

Additional observations from a re-analysis of the deposited data

Results flagged for a closer look

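Groups of 4 libraries were examined for a library far from its group, which gave 20 combinations of a member and a group (acute ethanol in dHPC and chronic ethanol in DS). Dixon's test found 2, and chance alone is expected to give about 1 in 20. Both belong to acute ethanol replicate 2 in dHPC: *Aqp4* stood at 126.3 CPM there against 86.5 to 93.1 in the other 3 libraries, and *Gfap* at 451.7 against 370.2 to 383.8.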

How the results depend on the processing

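For the ethanol, saline and chronic minus acute comparisons, the number of members called held in most alternatives and moved in the following. DESeq2 called 2 members in vHPC acute and 1 each in CTX, DS and VS chronic, and isoforms of members to the number of 4 in vHPC acute, 4 in vHPC chronic, 1 in DS chronic and 2 in VS chronic, where edgeR called 0 and DESeq2 1.65%, 0.723%, 0.467% and 1.02% of all isoforms. With no filter on low counts, 4 were called in CTX acute, 2 in vHPC acute, VS chronic and DS saline, and 1 in VS acute, CTX chronic, DS chronic, the chronic minus acute change in vHPC and in VS, and vHPC saline; that fit called 0.281% to 5.57% of all genes in these comparisons. A fit with all 4 groups called 0 in DS acute. Leaving out 1 library gave 0 to 1 in CTX acute (without acute saline replicate 6), VS acute (without acute ethanol replicate 2), VS chronic (without chronic saline replicate 5), vHPC chronic minus acute (without acute saline replicate 6) and DS saline (without acute saline replicate 2 or chronic saline replicate 3), 0 to 3 in vHPC acute and 0 to 4 in vHPC saline (both without acute saline replicate 6). Those fits called 1.42%, 1.48%, 3.08%, 2.12%, 1% or 6.09%, 1.54% and 5.12% of all genes in turn; without chronic saline replicate 3 that DS group is 1 library, assumed to vary like the acute saline libraries. DS minus VS gave 0 with saline mice only, where *Aldh1l1* reversed to 0.0107. The alternative fits of that pair called from 3.43% to 47% of all genes. *Glul* in dHPC minus CTX reversed to 0.00384 without the library high in striatal markers. The causes were not tested. The folds between region means in 3 other scalings or sample choices, added after seeing the data, moved by less than their spread.

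Same-numbered saline and ethanol mice are different animals, and over the 7 such pairs in comparisons sharing at least 2 numbers the deviations correlated at -0.39 to 0.13, and over the 7 in comparisons sharing 1 number at -0.05 to 0.45; with the replicate number as a block, 2 members were called in CTX acute, *Gfap* and *S100b* (beside 3.05% of all genes), and no other call between treatments changed. Without the mouse as a block, *Kcnj10* in vHPC minus DS and *Aldh1l1* in DS minus VS lost the call, and *Aldh1l1* in vHPC minus VS and *Gfap* and *S100b* in DS minus VS gained it. At 2 to 4 libraries a group, an SE of 0.05 to 0.32 on the log2 scale limits what could be seen.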
